A study of Mus musculus with 6 samples.

Results

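The 9 genes described here encode ligands and receptors of the vascular endothelial growth factor (VEGF) family, to which placental growth factor (PlGF) belongs. They were chosen by symbol, as the probe sets that the array's annotation assigns to Pgf, Vegfa, Vegfb, Vegfc, Flt1, Kdr, Flt4, Nrp1 or Nrp2 alone. Each of the 9 had a single such probe set, and they are 9 of the 22180 genes tested. All 6 samples were CD4+ T cells of mouse spleen, isolated with magnetic beads, cultured with 10% serum and stimulated for 12 hours with CD3 and CD28 antibodies (1 µg/ml). The groups differed in the medium, and each held 2 replicate samples. PlGFCM was conditioned medium of HEK-293 clones that overexpress the PlGF2 form, HEK-293 being a human embryonic kidney line, ConCM was control conditioned medium, and IL6+ConCM was the same control medium with IL-6 at 20 ng/ml. The labels used here give no amount of PlGF in the medium and no strain, sex or age of the mice, and a conditioned medium also carries whatever else its clones secrete. RNA was hybridised to a whole-transcript array that gives a log2 level per probe set.

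PlGF and VEGF-B bind the receptor tyrosine kinase Flt1 (VEGFR-1), VEGF-A binds Flt1 and Kdr (VEGFR-2), and VEGF-C binds Flt4 (VEGFR-3) and Kdr. The neuropilins Nrp1 and Nrp2 are co-receptors without a kinase, which bind the longer, heparin-binding ligand forms, PlGF2 among them, and also semaphorins. The receptors are best known from blood and lymph vessel endothelium, while in T cells of the mouse Nrp1 is known as a surface protein of regulatory T cells that arise in the thymus.

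The cells carried the RNA of 2 ligands at high levels, Vegfa and Vegfb, and that of the co-receptors at intermediate levels, while the 3 receptor kinases and Pgf lay near the middle of all probe sets. None of the 9 genes passed the test in any comparison of media, including Flt1 and Nrp1, the receptor and co-receptor of the added ligand. The levels of Nrp1 differed more between the 2 arrays of a group than between groups. Over the arrays they followed the regulatory T cell gene Ikzf2 (Pearson's r 0.944) but not Il2ra (0.089), and the relation to Foxp3 did not hold after adjustment. Nrp1 was picked for its spread, and its relation to these markers was read after the values were seen. An r above 0.9 with Nrp1 was shared by 146 of the 11750 genes at or above the median of all probe sets.

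The promoters of 3 of the genes are shown as a reference for the ligand under study (Pgf), its receptor (Flt1) and the member with the highest level (Vegfa). They are RefSeq sequences of build GRCm38.p6, from 250 bases before to 50 bases after the start of the gene's most upstream transcript, written 5′ to 3′ on the gene's strand. Capitals mark the letters GCGTG or ACGTG on either strand (CACGC or CACGT when read on the other), which form the core of the motif bound by hypoxia-inducible factors. The Pgf window is chr12:85177264-85177563 on the minus strand, the Flt1 window chr5:147725962-147726261 on the minus strand and the Vegfa window chr17:46032328-46032627 on the minus strand.
Pgf: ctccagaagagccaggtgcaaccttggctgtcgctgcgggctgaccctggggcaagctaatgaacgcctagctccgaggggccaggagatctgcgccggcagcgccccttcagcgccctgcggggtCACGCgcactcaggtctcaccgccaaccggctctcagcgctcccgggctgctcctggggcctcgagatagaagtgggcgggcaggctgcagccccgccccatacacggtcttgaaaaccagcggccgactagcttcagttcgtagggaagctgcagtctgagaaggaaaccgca
Flt1: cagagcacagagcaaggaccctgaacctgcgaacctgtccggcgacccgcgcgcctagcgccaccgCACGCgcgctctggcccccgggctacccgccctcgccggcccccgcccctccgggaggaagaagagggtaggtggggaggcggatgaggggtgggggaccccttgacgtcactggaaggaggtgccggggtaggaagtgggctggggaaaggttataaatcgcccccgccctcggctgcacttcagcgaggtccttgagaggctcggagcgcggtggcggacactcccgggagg
Vegfa: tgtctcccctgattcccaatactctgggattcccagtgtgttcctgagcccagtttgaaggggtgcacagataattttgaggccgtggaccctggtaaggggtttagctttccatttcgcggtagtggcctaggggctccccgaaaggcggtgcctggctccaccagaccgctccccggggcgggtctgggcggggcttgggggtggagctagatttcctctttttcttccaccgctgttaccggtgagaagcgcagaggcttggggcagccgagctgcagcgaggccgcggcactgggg
The Pgf and the Flt1 window each held 1 such match, both of GCGTG, and the Vegfa window held 0. Of the 9 genes' windows 6 held at least 1 match, against 43.8% of 27025 gene promoters of the same length. All 9 windows held more CpG pairs than the median promoter, which had 7, with 16 in the Vegfa, 23 in the Pgf and 29 in the Flt1 window. Such matches describe the letters of the window alone.

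The labelled cell type was checked against its markers. The 9 measured of 11 CD4 T cell markers ranked at the 93.2nd to 99.6th percentile among the 41345 probe sets, with Cd4 itself at a mean log2 level of 11.28 and Cd3e at 12.01. Because endothelial cells carry VEGF receptors, their markers were read as well. Of 11 endothelial markers 9 lay below the 50th percentile, among them Cdh5 at the 39.6th, Tek at the 23.5th and Emcn at the 10.7th, and the exceptions were Pecam1 at the 94.1st and Egfl7 at the 66.2nd. Other lists held higher markers. The 7 measured B cell markers ranked at the 58.7th to 73.8th percentile, and the highest myeloid marker, Cd68, ranked at the 88.2nd, the highest platelet marker, Itgb3, at the 86.8th and the highest marker of CD8 T and NK cells, Cd8b1, at the 84.6th. Of these lists, the B cell markers Ms4a1 and Fcer2a fell by 0.84 and 0.86 with PlGFCM against ConCM (limma adjusted p = 0.0125 and 0.0206), and neither passed without PlGFCM replicate 1, PlGFCM replicate 2 or ConCM replicate 2. Without ConCM replicate 1, Ms4a1 did not pass either. Of the 7 measured B cell markers 4 were higher with PlGFCM than with ConCM, and none of these 4 passed. They were Cd79b (0.33), Pax5 (0.31), Cd79a (0.22) and Blk (0.19), while Cd22 was at -0.02. Ly6g of the myeloid list rose by 1.62 with PlGFCM (limma adjusted p = 9.6e-05) and by 1.36 with IL6+ConCM (adjusted p = 0.00253), and both calls held in 6 of 6 fits without 1 array. Ly6g alone of the 10 myeloid markers passed, and 6 of the 10 were higher in either comparison with ConCM. S100a8 and S100a9 of that list were at -0.0024 and -0.06 from ConCM with PlGFCM, and at -0.14 and -0.33 with IL6+ConCM. Gzma of the CD8 T and NK cell list rose by 0.93 and 1.12, and Eomes of that list fell by 1.34 and 1.44, with PlGFCM and IL6+ConCM. Without either PlGFCM array, neither passed for PlGFCM. Gzma lost both calls without ConCM replicate 2, and Eomes lost the IL6+ConCM call without IL6+ConCM replicate 2. In a limma fit without an intensity trend, 0 genes passed as lower in PlGFCM or in IL6+ConCM against ConCM. The falls of Ms4a1, Fcer2a and Eomes thus did not pass in that fit. As higher, 6 genes passed in PlGFCM and 1 in IL6+ConCM against ConCM. Ly6g and Gzma thus did not both pass there for IL6+ConCM, and which rises passed is not given here. The part of these cell types in the levels of the 9 genes was not tested. The mean log2 level over the 11 endothelial markers ran from 5.15 to 5.25 over the 6 arrays. In bulk RNA, fewer cells of a type and less RNA per cell cannot be told apart.

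PlGFCM replicate 2 stood apart from the other 5 arrays in Xist, an RNA that female cells make from their silenced X chromosome. Its log2 level was 8.38 there and 3.58 to 3.95 elsewhere. Of 3 genes on the Y chromosome, Uty was at 7.50 on PlGFCM replicate 2 and ran over 0.636 across the 6 arrays, Kdm5d was at 7.07 and ran over 0.703, and Eif2s3y was at 8.59 and ran over 0.554. All 3 were lowest on that array, where their levels stayed well above the array median. The labels used here give no sex. The part of this array's makeup in the results was not tested. Without this array the differences of PlGFCM from ConCM were 0.32 for Pgf, 0.18 for Vegfa, -0.14 for Vegfb, -0.41 for Vegfc, 0.10 for Flt1, 0.06 for Kdr, 0.09 for Flt4, 0.37 for Nrp1 and 0.24 for Nrp2, with limma adjusted p from 0.442 to 0.914. Those of PlGFCM from IL6+ConCM were -0.02 for Pgf, 0.14 for Vegfa, -0.07 for Vegfb, -0.30 for Vegfc, 0.32 for Flt1, 0.25 for Kdr, 0.05 for Flt4, 0.56 for Nrp1 and 0.20 for Nrp2. Median levels ran from 5.46 to 5.51 over the arrays. Whether the 2 replicates of a group were separate animals or cultures is not stated in the labels. The p-values therefore cover the spread between these samples, possibly a technical one for ConCM and IL6+ConCM. The 2 PlGFCM samples differed in makeup, with Xist at 3.58 and 8.38.

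Among the ligands, Vegfa had the highest level. Its log2 level was 8.86 and 8.81 with ConCM, 9.02 and 8.91 with PlGFCM, and 8.85 and 8.91 with IL6+ConCM, and its mean lay at the 90.7th percentile of all probe sets. Both PlGFCM arrays lay above both ConCM arrays, but the difference of 0.13 ± 0.08 (SE), with a 95% interval from -0.04 to 0.30, did not pass (limma adjusted p = 0.702). Vegfb, the ligand that binds Flt1 and not Kdr, lay at the 86.5th percentile. Its levels were 8.34 and 8.43 with ConCM, 8.25 and 8.26 with PlGFCM, and 8.23 and 8.41 with IL6+ConCM. The PlGFCM arrays were the lower ones here, at a difference of -0.13 ± 0.09 from ConCM (adjusted p = 0.740), and the IL6+ConCM arrays spanned both. These percentiles place each probe set among all probe sets and not the transcripts in order of abundance, since probe sets differ in how brightly they bind.

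Pgf, which encodes PlGF itself, lay at the 52.8th percentile. Its log2 level was 5.28 and 5.61 with ConCM, 5.77 and 5.42 with PlGFCM, and 5.62 and 5.95 with IL6+ConCM. The PlGFCM and ConCM arrays overlapped, at a difference of 0.15 ± 0.17 (SE), which was 0.32 without PlGFCM replicate 2 and -0.03 without PlGFCM replicate 1. Both IL6+ConCM arrays lay above both ConCM arrays, by 0.34 ± 0.17 on average with a 95% interval from -0.03 to 0.72, which did not pass (limma adjusted p = 0.920). Vegfc, a ligand of lymphatic endothelium, had levels of 5.95 and 6.04 with ConCM, 5.59 and 5.70 with PlGFCM, and 5.75 and 6.02 with IL6+ConCM. It was the member with the smallest p for PlGFCM against ConCM, where both PlGFCM arrays lay below all 4 others. The difference from ConCM was -0.35 ± 0.13, with a 95% interval from -0.64 to -0.07 and an unadjusted p of 0.0199, and it did not pass over all genes (limma adjusted p = 0.428). Without PlGFCM replicate 2 the difference was -0.41 (adjusted p = 0.442). Vegfd, the remaining VEGF ligand on the array, lay at the 24.5th percentile and between 4.17 and 4.59 on the 6 arrays.

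**Figure D1:**
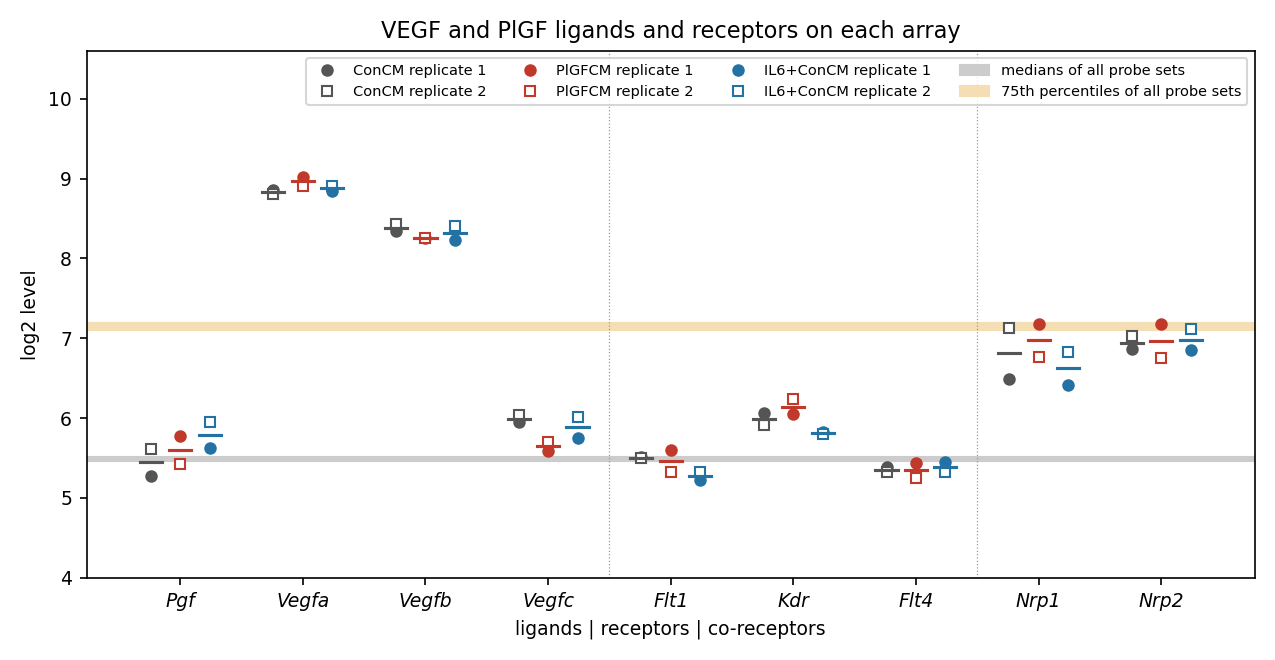
Log2 level (y axis) of the 9 genes (x axis, in order of role) on each of the 6 arrays. Filled circles are replicate 1, open squares replicate 2 and short lines the mean of 2 arrays, and bands show the range over arrays of the median and of the upper quartile. Vegfa and Vegfb lie above both bands on every array, Nrp1 and Nrp2 lie at or below the upper one, and Flt1 and Flt4 lie about the lower one.

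The 3 receptor kinases lay near the median of all probe sets. Flt1, the receptor of PlGF, had log2 levels of 5.51 and 5.50 with ConCM, 5.60 and 5.32 with PlGFCM, and 5.22 and 5.33 with IL6+ConCM, at the 48.7th percentile. The PlGFCM arrays lay on both sides of the ConCM arrays, and the difference was -0.04 ± 0.14 (SE) with a 95% interval from -0.34 to 0.26, or from 0.79-fold to 1.19-fold (limma adjusted p = 0.962). Without PlGFCM replicate 2 it was 0.10 (adjusted p = 0.854), so that its direction depended on this array. Both IL6+ConCM arrays lay below both ConCM arrays, at -0.22 ± 0.14 from ConCM (adjusted p = 0.981).

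Kdr, the main signalling receptor of VEGF-A in endothelium, was at the 59.7th percentile. Its levels were 6.07 and 5.92 with ConCM, 6.05 and 6.24 with PlGFCM, and 5.82 and 5.80 with IL6+ConCM. The IL6+ConCM arrays were the lowest of the 6. Between PlGFCM and IL6+ConCM the difference was 0.34 ± 0.12 (SE), with a 95% interval from 0.07 to 0.61 and an unadjusted p of 0.0182, which did not pass over all genes (limma adjusted p = 0.998). Without PlGFCM replicate 2 it was 0.25 (adjusted p = 0.805). Flt4, the receptor of VEGF-C, kept within 0.204 log2 units over the 6 arrays, between 5.25 and 5.45, at the 47.5th percentile. Its 3 differences lay between -0.05 and 0.04.

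The table gives no call of detection, so a level near the median of all probe sets does not tell whether Flt1, Kdr, Flt4 or Pgf was expressed. As a whole-transcript probe set sums over a gene, full-length and soluble forms of Flt1 and Kdr, and the splice forms of Pgf, Vegfa and Nrp1, are not told apart.

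**Figure D2:**
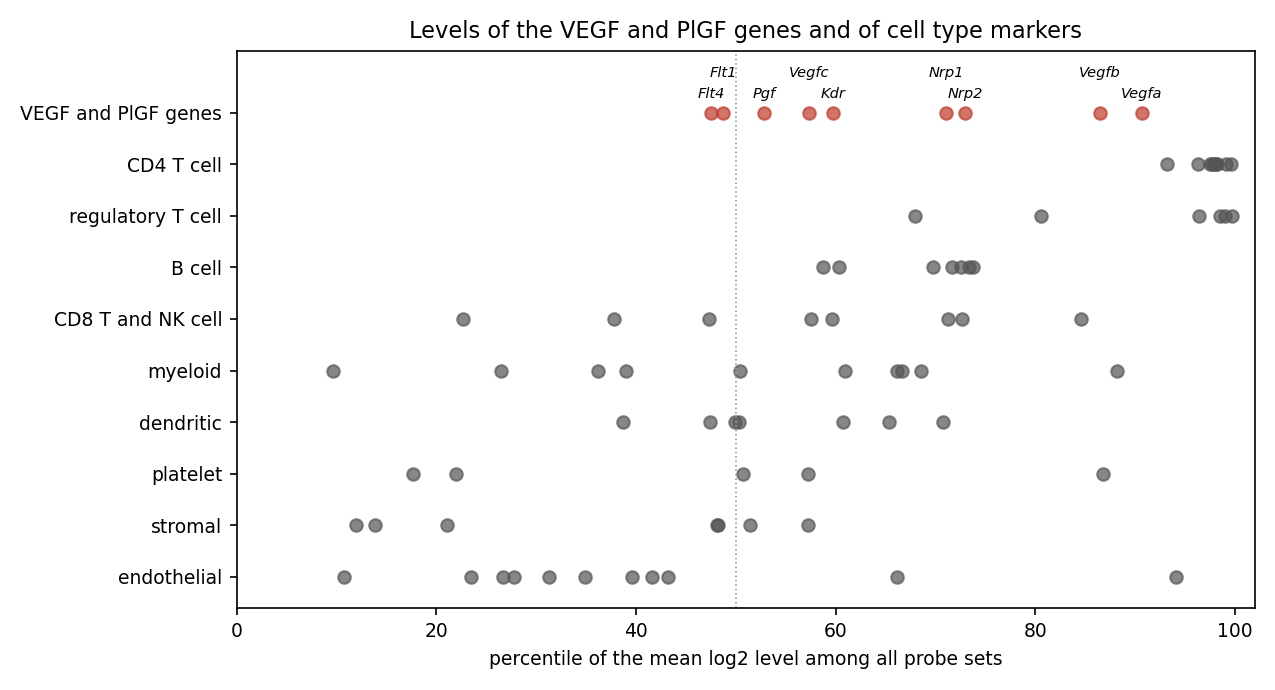
Percentile of the mean log2 level over 6 arrays among all 41345 probe sets (x axis), with 1 point per gene, for the 9 VEGF and PlGF genes (red) and for markers of 9 cell types (grey). The dotted line is the median. CD4 T cell markers all lie above the 93rd percentile and 9 of 11 endothelial markers below the 50th, and the 9 genes run from the 47.5th to the 90.7th.

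The co-receptors lay higher than the kinases in this ranking, Nrp1 at the 71.1st and Nrp2 at the 73.0th percentile. Nrp1 had log2 levels of 6.49 and 7.13 with ConCM, 7.18 and 6.77 with PlGFCM, and 6.42 and 6.83 with IL6+ConCM. In each group the 2 arrays lay 0.41 to 0.64 apart, and the groups overlapped in all 3 comparisons. Its difference was 0.17 ± 0.21 (SE) for PlGFCM against ConCM (limma adjusted p = 0.883), -0.19 ± 0.21 for IL6+ConCM against ConCM (adjusted p = 0.997) and 0.35 ± 0.21 for PlGFCM against IL6+ConCM (adjusted p = 0.998). The SD of Nrp1 over the 6 arrays, 0.315, was the largest of the 9, against 0.0721 for Vegfa. Without PlGFCM replicate 2 the difference from ConCM was 0.37, and without PlGFCM replicate 1 or ConCM replicate 1 it turned negative.

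Nrp2, the co-receptor best known from lymphatic endothelium, had levels of 6.86 and 7.03 with ConCM, 7.18 and 6.75 with PlGFCM, and 6.85 and 7.11 with IL6+ConCM. The PlGFCM arrays were the highest and the lowest of the 6, and the group means of 6.95, 6.97 and 6.98 lay within 0.04 of each other. The difference between PlGFCM and ConCM was 0.02 ± 0.15 (SE), and it was 0.24 without PlGFCM replicate 2 and -0.19 without PlGFCM replicate 1. Nrp1, Nrp2 and Pgf had the same order of the 2 arrays in all 3 groups, an order that 2922 of the 22180 genes (13.2%) had.

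The array-to-array pattern of Nrp1 was set beside the 6 markers of regulatory T cells. Ikzf2, which encodes the transcription factor Helios, had log2 levels of 7.43 and 7.88 with ConCM, 7.90 and 7.60 with PlGFCM, and 7.33 and 7.84 with IL6+ConCM. The array with the higher Nrp1 was the one with the higher Ikzf2 in 3 of 3 groups, and over the 6 arrays the 2 genes had the same rank order. Pearson's r was 0.944 (exact permutation p = 0.00278, adjusted over 6 markers 0.0167) and Spearman's rho was 1 (exact permutation p = 0.00278, adjusted 0.00833). Without the 2 arrays farthest from the median of Nrp1, r was 0.893. Tnfrsf18, which encodes the receptor GITR, had r = 0.752 (exact permutation p = 0.00556, adjusted 0.0167) and a rho of 1 (adjusted 0.00833), and r = 0.920 without these 2 arrays, though its levels kept within 0.199 and 5 of the 6 lay between 11.16 and 11.20. Foxp3, the factor that defines the lineage, had r = 0.875 and rho = 0.771, which did not hold after adjustment (exact permutation, adjusted p = 0.0833 and 0.206). Il2ra, the IL-2 receptor alpha chain that activated T cells carry too, had r = 0.089 (exact permutation p = 0.861). Ctla4 had r = 0.442 and Il10 r = 0.350, with adjusted p = 0.508 for both by exact permutation. Of the 6 markers Il10 alone passed between media, at 1.14 for PlGFCM against ConCM (limma adjusted p = 0.00908). It lost this call without either PlGFCM array or ConCM replicate 2. Among the 11750 genes at or above the median of all probe sets, the r of Ikzf2 ranked at the 99.7th percentile, that of Foxp3 at the 98.2nd and that of Tnfrsf18 at the 94.2nd. Nrp1 was picked for its spread over the arrays and the relation was read after the values were seen. The tests are two-sided and permute all 6 arrays without regard to group, though the arrays share their groups and their processing. The part of regulatory T cell numbers in the levels of Nrp1 was not tested.

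**Figure D3:**
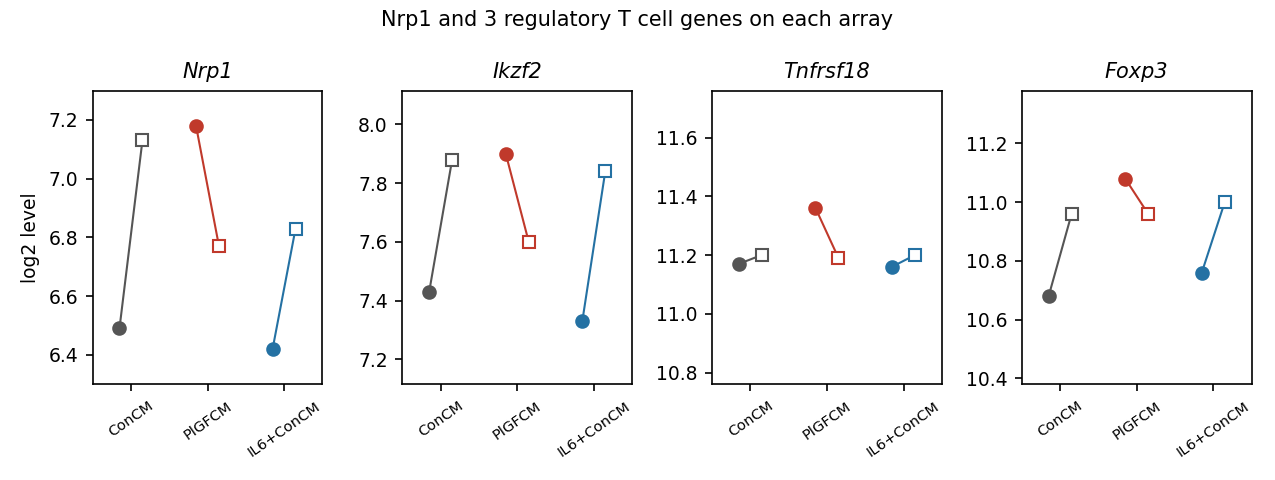
Log2 level (y axis, each panel spanning 1 log2 unit) of Nrp1 and of 3 regulatory T cell genes in the 3 media (x axis). Filled circles are replicate 1, open squares replicate 2, and lines join the 2 arrays of a group. Nrp1, Ikzf2 and Foxp3 are higher on ConCM replicate 2, PlGFCM replicate 1 and IL6+ConCM replicate 2 than on the other array of the group, and Tnfrsf18 spans a narrower range in the same order. Il2ra, Ctla4 and Il10, which had lower r with Nrp1, are not drawn.

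Of these 11750 genes, those with the pattern most like Nrp1 over the 6 arrays, by Pearson's r, were Fxr2, which encodes an RNA-binding protein of the fragile X family (0.994), Tnfrsf11a, which encodes the receptor RANK (0.989), and Insl6, an insulin-like peptide gene (0.987). In all, 146 had an r above 0.9, and they were ranked by this value and not tested.

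Between PlGFCM and ConCM 0 of the 9 genes passed, with limma adjusted p from 0.428 to 0.989, where 0.433% of all genes passed. At an unadjusted p under 0.05 the number was 1, Vegfc, where 8.74% of all genes reached it. The groups did not overlap for 3 of the 9, Vegfa, Vegfb and Vegfc, against 38.2% of all genes. The median difference of the 9 was 0.02, and that of all genes -0.01. These shares and medians put the 9 genes about where all genes lay.

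Between IL6+ConCM and ConCM 0 of the 9 passed (limma adjusted p from 0.920 to 1.000, where 0.113% of all genes passed) and 0 had an unadjusted p under 0.05 (5.62% of all genes). The groups did not overlap for Pgf, Flt1 and Kdr, against 34.1% of all genes, with Pgf higher and Flt1 and Kdr lower with IL-6. Between PlGFCM and IL6+ConCM 0 passed as well (limma adjusted p = 0.998 for all 9, where 0.0316% of all genes passed), and 1, Kdr, had an unadjusted p under 0.05 (4.37% of all genes). Here the groups did not overlap for Vegfa, Vegfc and Kdr, against 30.1% of all genes. Both comparisons with ConCM use the same ConCM arrays. Over the 27 differences the 95% intervals reached from -0.64 to 0.81, and their SE ran from 0.08 for Vegfa to 0.21 for Nrp1, so that changes of the size of these intervals cannot be seen or shut out with 2 arrays a group.

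**Figure D4:**
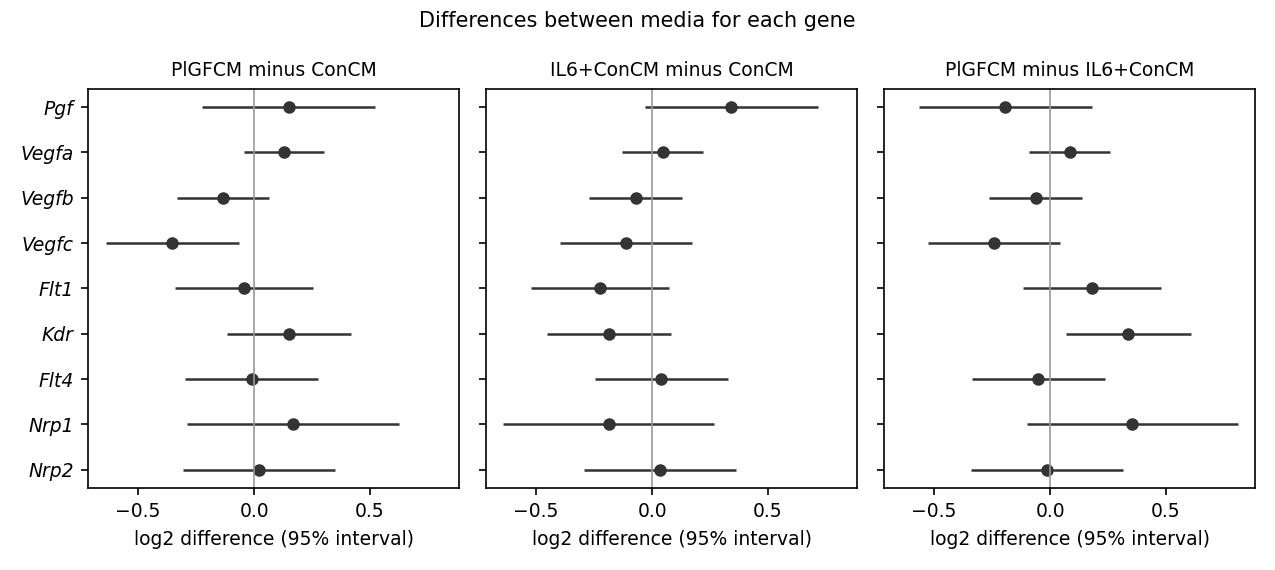
Difference of the mean log2 level (x axis) between media for each of the 9 genes (y axis), in 3 comparisons. Points are limma estimates from 6 arrays and bars their unadjusted 95% intervals. The bar excludes 0 for Vegfc in PlGFCM minus ConCM and for Kdr in PlGFCM minus IL6+ConCM, and none of the 27 differences passed over all genes.

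The genes around these ligands and receptors were read from 5 lists of 95 entries, of which 88 were measured, and 0 of the 88 passed in any comparison. At an unadjusted p under 0.05 the numbers were 11 for PlGFCM against ConCM (12.5%, against 8.74% of all genes), 6 for IL6+ConCM against ConCM (6.82%, against 5.62%) and 2 for PlGFCM against IL6+ConCM (2.27%, against 4.37%). On the list of signalling downstream of the receptors, with 27 measured genes and a median difference of 0.02 between PlGFCM and ConCM, the smallest p was that of Plcg1, which encodes phospholipase C gamma 1, used by VEGF receptors and by the T cell receptor alike. Its log2 level was 9.41 and 9.39 with ConCM, 9.67 and 9.65 with PlGFCM, and 9.40 and 9.48 with IL6+ConCM. Both PlGFCM arrays lay above the other 4, at 0.26 ± 0.07 (SE) from ConCM (limma adjusted p = 0.230) and 0.22 ± 0.07 from IL6+ConCM (adjusted p = 0.863). With IL-6 the smallest p was that of Prkca, a protein kinase C, at -0.36 ± 0.08 from ConCM (adjusted p = 0.196).

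Semaphorins and plexins, only some of which share the neuropilins with VEGF ligands, had a median difference of 0.03 over 18 measured genes between PlGFCM and ConCM. Sema4d, the semaphorin CD100 of T cells, had levels of 10.10 and 10.04 with ConCM, 10.35 and 10.37 with PlGFCM, and 10.24 and 10.32 with IL6+ConCM. All 4 other arrays lay above the ConCM arrays, and neither the difference of 0.29 ± 0.06 (SE) for PlGFCM (limma adjusted p = 0.107) nor that of 0.21 ± 0.06 for IL6+ConCM (adjusted p = 0.556) passed. Sema3f, a neuropilin ligand, was at -0.17 ± 0.10 in PlGFCM against IL6+ConCM (adjusted p = 0.998).

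The list of hypoxia control, whose factors are known to drive Vegfa transcription, had a median difference of 0.13 over 18 measured genes between PlGFCM and ConCM, against -0.01 for all genes, and 16 of the 18 were higher in PlGFCM, where 46.4% of all genes were. The mean level over the list was 9.03 and 9.08 with ConCM, 9.25 and 9.08 with PlGFCM, and 9.07 and 9.16 with IL6+ConCM, so that PlGFCM replicate 1 was high and PlGFCM replicate 2 lay at the level of ConCM replicate 2. The groups did not overlap for 6 of the 18, against 38.2% of all genes. All 18 lay at or above the median of all probe sets, while these shares cover dimmer genes as well. Genes at or above that median had a median difference of 0.0015 between PlGFCM and ConCM. P4ha1, a prolyl hydroxylase of collagen synthesis, had levels of 10.05 and 10.05 with ConCM, 10.43 and 10.33 with PlGFCM, and 10.20 and 10.29 with IL6+ConCM. Its difference between PlGFCM and ConCM was 0.33 ± 0.07 (SE), the smallest p of the 88 genes, and did not pass (limma adjusted p = 0.0761). Hif1a, the oxygen-regulated factor itself, was at 0.27 ± 0.08 in IL6+ConCM against ConCM (adjusted p = 0.485).

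Heparan sulphate proteoglycans and their enzymes, to which heparin-binding forms such as PlGF2 attach, had medians of 0.05, -0.0022 and 0.0076 in the 3 comparisons over 19 measured genes. Sdc4, the proteoglycan syndecan-4, had levels of 8.68 and 8.70 with ConCM, 9.02 and 8.86 with PlGFCM, and 8.39 and 8.74 with IL6+ConCM. The PlGFCM arrays were the highest of the 6, at 0.25 ± 0.11 (SE) from ConCM (limma adjusted p = 0.549) and 0.38 ± 0.11 from IL6+ConCM (adjusted p = 0.735). Ext2, a heparan sulphate polymerase, was at 0.12 ± 0.10 in IL6+ConCM against ConCM (adjusted p = 0.994). On the list of the related platelet-derived growth factors, with 6 measured genes, Pdgfa was at -0.30 ± 0.12 in PlGFCM (adjusted p = 0.472) and at -0.17 ± 0.12 in IL6+ConCM (adjusted p = 0.988) against ConCM, and Pdgfb at 0.18 ± 0.11 in PlGFCM against IL6+ConCM (adjusted p = 0.998).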

How the data were processed

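The authors deposited log2 levels of 41345 probe sets on 6 arrays. Per the submitters' processing notes the levels came from Transcriptome Analysis Console, with version, normalization and genome build not given in the sources used here, and they were used as deposited. The platform annotation assigns 23521 probe sets to 1 gene symbol. Where a gene had several, the brightest was taken, for 22180 genes without a filter.

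Differences were tested with limma 3.58.1 in R 4.3.3 (lmFit, eBayes with an intensity trend, all 6 arrays, 3 residual degrees of freedom). A gene passed at a Benjamini-Hochberg adjusted p under 0.05 over all 22180 genes. Simulated data with known changes were used to test the fit. For 2 against 2 arrays the smallest two-sided p of an exact permutation test is 0.333. Genes named from the surrounding lists are, per list and comparison, those that passed or, with none, the one with the smallest p. The member most variable over the arrays, among those at or above the median probe set, was compared with all genes at or above it by Pearson's r. Members and lists were chosen with earlier results of these data known, and the regulatory T cell relation was read after the values were seen. Alternatives were 2 normalizations, a filter on dim probe sets, the mean of a gene's probe sets, no intensity trend, the compared arrays alone, a replicate block and each array left out.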

Additional observations from a re-analysis of the deposited data

How the results depend on the processing

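In all 42 counts, 3 from the fit reported and 39 from the 13 alternatives, 0 members passed, with limma adjusted p of 0.283 or more in every fit. Flt1 and Flt4 had no value under the filter on dim probe sets. The number of genes that passed for PlGFCM against ConCM, 96, was 174 under that filter, 6 without an intensity trend and 62 with a replicate block. For IL6+ConCM against ConCM, 25, it was 53 under the filter, 1 without a trend, 16 with the block and 12 with the compared arrays alone, and for PlGFCM against IL6+ConCM, 7, it was 0 without a trend. With 1 array left out these numbers ran from 12 to 107, from 2 to 41 and from 0 to 5, the lone array of a group being assumed to vary like the others. P4ha1 passed for PlGFCM against ConCM under the filter (adjusted p = 0.0411). Deviations of equally numbered arrays had r from -0.0386 to 0.111 across genes, and the labels name no source that equal numbers share. The block changed no call of the members, of Vegfd or of the surrounding-list genes in the comparisons they were named for. Whether the calls of Ms4a1, Fcer2a, Ly6g, Gzma, Eomes and Il10 held with the block was not tested.

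Some differences turned sign, those of Nrp1 and Pgf among them. After quantile normalization Nrp2 was at -0.022 for PlGFCM against ConCM and Vegfd at 0.011 for PlGFCM against IL6+ConCM, where array medians gave 0.0048. With 1 array left out, PlGFCM against ConCM ran from -0.18 to 0.10 for Flt1, -0.11 to 0.086 for Flt4, -0.15 to 0.49 for Nrp1, -0.19 to 0.24 for Nrp2, -0.026 to 0.32 for Pgf and -0.32 to 0.087 for Vegfd. IL6+ConCM against ConCM ran from -0.018 to 0.099 for Flt4, -0.51 to 0.13 for Nrp1, -0.098 to 0.17 for Nrp2, -0.16 to 0.019 for Vegfb, -0.24 to 0.020 for Vegfc and -0.32 to 0.090 for Vegfd. PlGFCM against IL6+ConCM ran from -0.15 to 0.045 for Flt4, -0.23 to 0.20 for Nrp2, -0.15 to 0.028 for Vegfb and -0.11 to 0.10 for Vegfd. The cause was not tested. Ranked among probe sets with 1 symbol, the 9 genes lay at the 45th to the 89.7th percentile, and Nrp1 kept an r of 0.932 and 0.947 with Ikzf2 under the 2 normalizations.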
